A study of Mus musculus with 12 samples.

Results

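Cytosolic ribosomal proteins are the proteins of the ribosomes that translate nuclear-encoded mRNAs, and their genes were followed here in mouse T-cell acute lymphoblastic leukemia (T-ALL) after a short exposure to dexamethasone. Their rows were taken by name from a deposited table of FPKM (fragments per kilobase of gene model, scaled for sequencing depth): names that begin with Rpl or Rps and a digit, and Rplp0, Rplp1, Rplp2 and Rpsa, without names that hold -ps and without the S6 kinase genes. This gave 92 of 38339 rows. Of these, 43 were proteins of the large (60S) subunit, 3 were its stalk proteins, 31 were proteins of the small (40S) subunit, and 15 were paralogs, retrogenes and genes that share the name only. The first 3 classes are called the core genes (77) below. In GENCODE M21 the 92 genes lay on 19 chromosomes, with 15 on chromosome 7, and 30 held a small nucleolar or Cajal body RNA gene inside their bounds.

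The study compared dexamethasone (DEX) with vehicle (VEH) in 6 primary murine leukemias that had been transplanted into recipient mice. Each leukemia gave 1 DEX and 1 VEH library, and each library is 1 recipient, so n = 6 leukemias. The recipients were moribund when dosed and were killed 4 hours later; the dose is not given in the sources used here. All leukemias, in both arms, were on a C57BL/6 x 129Sv/Jae F1 background, and the labels give no other allele and no resistant group. Bone marrow was freed of red cells and lysed in Trizol without a sort, and total RNA was sequenced as stranded paired reads on a HiSeq 2500. A change in a bulk library cannot tell fewer cells of a type from less RNA per cell.

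The FPKM of a library summed to 1466471 to 2019058, and 11778 to 12970 genes reached an FPKM of 1. Estimated depth was 11700000 to 36200000 fragments in 11 libraries and could not be fixed for the VEH library of leukemia 2. All 10 T-lineage markers were listed, with a summed level of 1521 to 2137 FPKM in DEX and 1604 to 2550 FPKM in VEH, so the labelled lineage was present in each library. Of these markers, Cd7 was at only 0.22 to 0.78 FPKM in both arms of leukemias 1, 2, 3 and 5. Granulocyte and monocyte markers were present as well, none of 15 at 0, with sums of 1566 to 5788 FPKM in DEX and 2411 to 9627 FPKM in VEH. Erythroid sums were 14.9 to 153 FPKM in DEX and 9.35 to 1221 FPKM in VEH, and B-lineage sums were 1.14 to 8.40 FPKM in DEX and 1.23 to 51.6 FPKM in VEH. In the DEX test described below, 4 of 9 tested T-lineage markers and 1 of 15 granulocyte and monocyte markers fell, where 9.28% of all genes fell. Only 5 erythroid markers and 1 B-lineage marker were tested, and 0 of them passed. The median log2 differences of the tested markers were -0.25 for T lineage, -0.45 for granulocyte and monocyte, -0.54 for erythroid and -0.49 for B lineage. The library descriptions of the DEX arms of leukemias 2, 5 and 6 lack an S number that the others carry. What it stands for is not given in the sources used here.

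Ribosomal proteins are made in matched amounts, and proteins left over are degraded. Their mRNAs begin with a run of pyrimidines at the cap, the 5′ terminal oligopyrimidine (TOP) motif, through which mTOR and LARP1 set how much of the mRNA is translated. MYC raises the transcription of many of these genes, and loss or mutation of single ribosomal proteins recurs in human T-ALL. The mRNAs are abundant and have left many processed copies in the genome, some of them identical to the coding sequence. A fragment from such an mRNA can be assigned to the parent gene, to a copy or to both.

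Copies bear directly on the values of this gene group. Of the 92 genes, 86 had a coding sequence to search against GENCODE M21, and the pseudogenes among the 92 were not searched. At least 1 copy of 95% identity or more was found for 74 of the 86, and an identical copy for 17. The next lines print 60 bases of coding sequence of both genes that passed the DEX test, of Rps6 and of the genes whose level stood at a copy in some leukemias, read 5′ to 3′ on the gene's strand (GRCm38), with capitals where a copy differs from the named member. For Rpl12 (coding bases 327 to 386; chromosome 2, 32961559 to 32965345, plus strand), the copy Gm10275 (chromosome 10) is identical and Gm11425 (chromosome 11) is not.
Rpl12: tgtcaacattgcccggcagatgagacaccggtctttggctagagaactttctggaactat
Gm10275: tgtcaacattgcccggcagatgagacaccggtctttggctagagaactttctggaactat
Gm11425: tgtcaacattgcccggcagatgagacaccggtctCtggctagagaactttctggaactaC
For Rpl27a (coding bases 343 to 402; chromosome 7, 109519147 to 109522367, plus strand), Gm7536 on chromosome 3 is identical and Gm5453 on chromosome 13 differs.
Rpl27a: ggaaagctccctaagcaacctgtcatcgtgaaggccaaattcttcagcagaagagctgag
Gm7536: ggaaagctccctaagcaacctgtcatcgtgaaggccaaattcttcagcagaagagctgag
Gm5453: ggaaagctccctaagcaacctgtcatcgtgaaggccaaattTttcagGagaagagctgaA
For Rps6 (coding bases 367 to 426; chromosome 4, 86854660 to 86857412, minus strand), Rps6-ps4 on chromosome 2 is identical and Gm8172 on chromosome X differs.
Rps6: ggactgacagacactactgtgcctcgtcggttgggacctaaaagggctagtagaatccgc
Rps6-ps4: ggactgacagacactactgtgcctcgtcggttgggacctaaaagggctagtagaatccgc
Gm8172: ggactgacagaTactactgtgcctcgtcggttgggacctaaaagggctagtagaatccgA
For Rpl34 (coding bases 73 to 132; chromosome 3, 130726831 to 130730398, minus strand) and Rps3a1 (coding bases 201 to 260; chromosome 3, 86137940 to 86142702, minus strand), each copy differs from its parent at few bases: Rpl34-ps1 (chromosome 6) is 99.4% identical over the coding sequence, Rps3a2 (chromosome 14) 99.5% and Rps3a3 (chromosome 13) 99.0%.
Rpl34: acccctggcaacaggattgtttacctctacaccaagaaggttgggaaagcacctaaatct
Rpl34-ps1: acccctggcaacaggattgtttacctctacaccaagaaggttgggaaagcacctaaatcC
Rps3a1: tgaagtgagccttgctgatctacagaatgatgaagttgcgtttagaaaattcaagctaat
Rps3a2: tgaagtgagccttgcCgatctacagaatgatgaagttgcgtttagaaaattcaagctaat
Rps3a3: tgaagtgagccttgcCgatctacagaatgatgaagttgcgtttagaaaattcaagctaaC

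The start regions of the core genes shared letters that the choice by name did not use. RefSeq promoters (GRCm38.p6) were matched for 57 of the 77 core genes. An unbroken run of at least 8 pyrimidines on the gene's strand, between 10 bases before and 20 bases after the start, was found in 23 of 57 (40.4%), against 13.0% of 26994 genes. CCGGAAG, an ETS factor motif, stood within 250 bases before to 50 bases after the start, on either strand, in 24 of 57 (42.1%), against 9.92% of all genes. The YY1 motif AAGATGG was found in 15.8% against 7.28%, and the MYC E-box CACGTG in 10.5% against 8.09%, both in the same window and on either strand. AGAACA, part of the glucocorticoid response element and searched in the same way, was found in 15.8% of core genes against 21.3% of all genes, and TATAAA before the start in 1.75% against 8.94%. These are letter matches only. The lines below show 50 bases before and 20 bases after the annotated start of both genes that passed the DEX test, of Rps6 and of the paralog gene Rpl22l1, with the longest pyrimidine run near the start in capitals.
Rpl12: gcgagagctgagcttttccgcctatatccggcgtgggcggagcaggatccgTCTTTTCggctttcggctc
Rpl27a: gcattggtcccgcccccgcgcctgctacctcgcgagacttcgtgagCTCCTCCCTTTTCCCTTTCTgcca
Rps6: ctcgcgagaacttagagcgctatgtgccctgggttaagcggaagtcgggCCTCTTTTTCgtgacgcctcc
Rpl22l1: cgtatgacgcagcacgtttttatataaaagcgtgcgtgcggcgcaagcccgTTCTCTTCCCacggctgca
The runs are 7, 20, 10 and 10 bases long in Rpl12, Rpl27a, Rps6 and Rpl22l1.

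Ribosomal protein mRNAs were among the most abundant in these leukemias. The core genes made up 16.7% ± 3.1 of the FPKM of all protein-coding genes in DEX and 16.3% ± 2.4 in VEH (SD, n = 6 each). Their summed level was 81142 ± 19395 FPKM in DEX and 78465 ± 14787 FPKM in VEH. Both measures count the rows of the core genes only and leave out the level listed at their copies. Of the 92 genes, 85 reached an FPKM of 1 in at least 6 of 12 libraries and were tested. Their mean levels over all libraries were 14.1 to 3405 FPKM, with a median of 985 FPKM. Among the 7 that were not tested, Rps12, Rps27 and Rpl10l were listed at 0 in every library. Rps12 and Rps27 are core proteins of the small subunit, and their copies Rps12-ps3 and Rps27rt were listed at 2475 and 2771 FPKM. Rpl10l and Rpl39l, known from testis, Rpl3l, known from muscle, Rps4l and Rps12l2 were at 0 or close to it, with at most 0.65 FPKM on average in DEX and 0.57 FPKM in VEH.

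The highest 3 levels were those of Rps24, a small-subunit protein that is mutated in some Diamond-Blackfan anemia families, of Rps27rt, an Rps27 retrogene, and of Rpl13a, a large-subunit protein. Rps24 averaged 3394 ± 784 FPKM in DEX and 3416 ± 755 FPKM in VEH. Rps27rt averaged 2813 ± 576 FPKM in DEX and 2730 ± 591 FPKM in VEH, and Rpl13a 2569 ± 959 FPKM in DEX and 2477 ± 786 FPKM in VEH. At each of these genes the arms differed by less than the SD of either. The lowest tested levels were those of Rps13, at 15.5 ± 6.3 FPKM in DEX and 12.6 ± 2.4 FPKM in VEH, of Rps19bp1, an Rps19-binding protein that is not part of the ribosome, at 14.9 ± 4.3 FPKM in DEX and 15.9 ± 4.6 FPKM in VEH, and of Rps6, at 18.6 ± 9.2 FPKM in DEX and 17.0 ± 2.4 FPKM in VEH. Rps6 and Rps13 encode core proteins, and most of the level listed for their sequences stood at copies. The Rps6 row held 0.83% of the summed level of Rps6 and its copies, and the Rps13 row 0.97%.

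**Figure D1:**
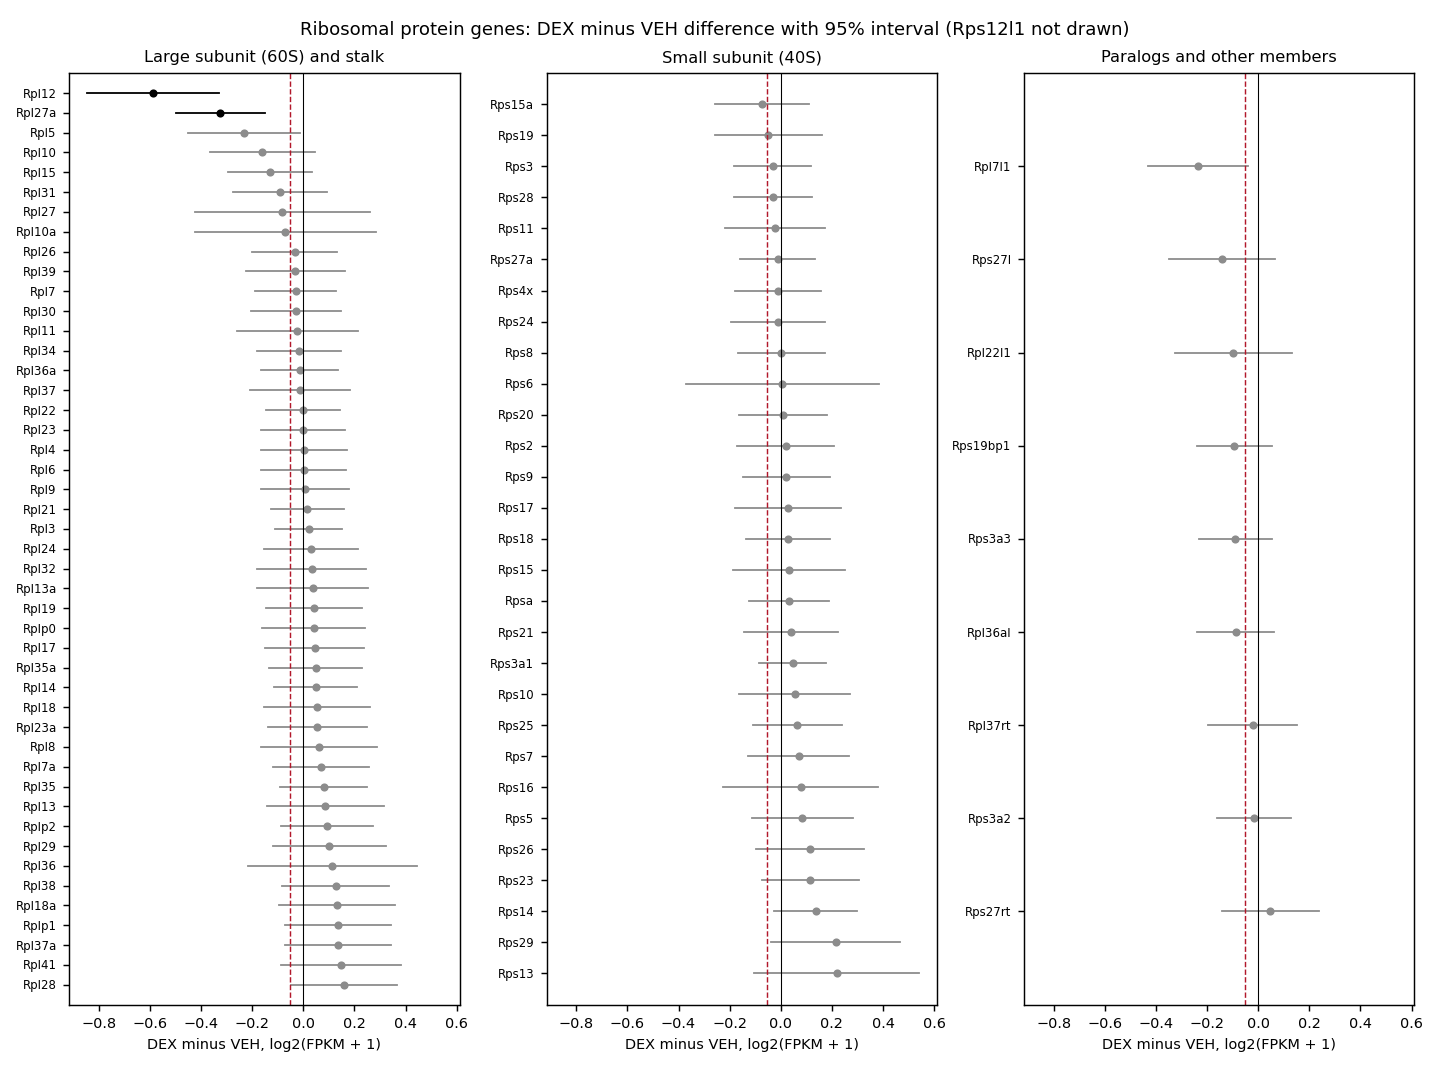
DEX minus VEH difference in log2(FPKM + 1) for each tested ribosomal protein gene (points) with its 95% interval from limma (lines), in 3 panels by class; black marks an adjusted p under 0.05 and the dashed line the median of all genes tested. Rpl12 (-0.59) and Rpl27a (-0.32) lie furthest to the left. Rpl7l1 (-0.24) and Rpl5 (-0.23) come next, with intervals that also lie below 0, and the intervals of the rest hold 0. Rps12l1 (0.86, interval -2.48 to 4.19) is not drawn.

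After 4 hours of dexamethasone, 2 ribosomal protein genes fell, Rpl12 and Rpl27a, 0 rose, and 83 of 85 did not pass the test. The test was limma on log2(FPKM + 1) with leukemia as a block, two-sided, with Benjamini-Hochberg adjustment over 12358 genes and a threshold of 0.05. Over all genes tested 9.28% fell and 4.27% rose (13.6% in either direction), and among the ribosomal protein genes 2.35% fell. At an unadjusted p under 0.05 there were 4, all below 0. The median difference was 0.02 over the 85 genes, with 51 above 0 and 34 below, and 0.03 over the 75 core genes tested (49 above, 26 below), where the median of all genes was -0.05 and 39.7% of them lay above 0. The core median was below 0 when the libraries were rescaled to a common sum (-0.11, all genes -0.16) or quantile normalized (-0.09, all genes -0.01), and above 0 with median-of-ratios scaling (0.09, all genes 0.00). The 95% interval lay within 0.5 of 0 on the log2 scale for 82 of the 85 genes and within 0.3 for 60.

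Rpl12, a protein at the base of the stalk where translation factors bind, had the largest fall. Its FPKM was 53.7, 59.6, 67.9, 62.1, 41.3 and 92.6 in DEX libraries 1 to 6, against 97.3, 77.4, 106, 94.3, 84.5 and 97.6 in the VEH libraries. The DEX library was lower in all 6 leukemias, the arms overlapped only through the DEX library of leukemia 6, and the difference was -0.59 ± 0.11 (SE; adjusted p = 0.0128, limma). Rpl27a, another large-subunit protein, had 57.5, 63.6, 59.5, 47.6, 38.2 and 79.1 FPKM in DEX libraries 1 to 6, against 75.9, 72.6, 68.2, 69.4, 55.8 and 84.8 FPKM in the VEH libraries. It too was lower in 6 of 6 leukemias, with overlapping arms, by -0.32 ± 0.08 (adjusted p = 0.0259, limma). Its adjusted p was 0.0794, 0.0799 and 0.0866 without leukemia 1, 4 or 5, and 0.0854 with median-of-ratios scaling. In the leukemias with an S number in both descriptions (1, 3 and 4) Rpl12 differed by -0.69 (adjusted p = 0.0107) and Rpl27a by -0.37 (adjusted p = 0.0613). In leukemias 2, 5 and 6 the values were -0.49 (adjusted p = 0.137) and -0.28 (adjusted p = 0.20), both from limma fits with 3 pairs.

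Neither fall was shared by the copies that hold most of the level. The Rpl12 row held 3.76% of the summed level of Rpl12 and its copies, and its identical copy Gm10275 had 1710, 2045, 2249, 1720.4, 1650.0 and 2875 FPKM in DEX libraries 1 to 6, against 1895, 1556, 2228, 1815, 1745 and 2377 FPKM in the VEH libraries. These differed by 0.06 (adjusted p = 0.682). The Rpl27a row held 3.40%, and Gm7536 averaged 1855 ± 452 FPKM in DEX and 1786 ± 289 FPKM in VEH, a difference of 0.04 (adjusted p = 0.816, limma). When each gene and its copies were summed and all genes refitted, an analysis added after the data had been seen, the Rpl12 sum differed by 0.04 (95% interval -0.17 to 0.25, adjusted p = 0.805) and the Rpl27a sum by 0.02 (adjusted p = 0.883, limma). In GENCODE M21, 5 of 7 Rpl12 transcripts and 4 of 6 Rpl27a transcripts are annotated as retaining an intron. How the authors' pipeline divided fragments between a gene and its copies was not tested.

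**Figure D2:**
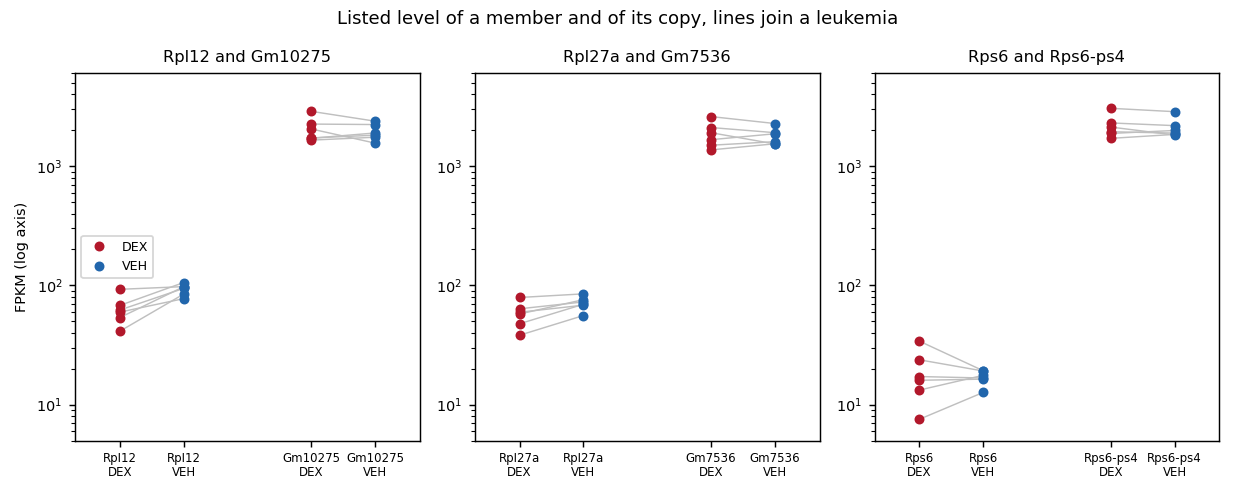
FPKM on a log axis of Rpl12, Rpl27a and Rps6 and of the identical copy of each (Gm10275, Gm7536 and Rps6-ps4) in 6 DEX (red) and 6 VEH (blue) libraries, with lines between libraries of a leukemia. Rpl12 and Rpl27a are lower in DEX in all 6 leukemias, while their copies, far higher on the axis, go both ways.

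Both calls fell on genes with a small share of their summed level. Shares rest on the copies found for the 86 genes with a coding sequence to search. Among those of them that were tested, 10 held under 25% of the summed level of themselves and their copies. These were Rps6, Rps13, Rpl31, Rpl27, Rpl27a, Rpl12, Rpl5, Rpl15, Rpl10a and Rpl10. Their median difference was -0.11, with 8 of 10 below 0. Without Rpl12 and Rpl27a the median was -0.09, with 6 of 8 below 0 and Rps13 and Rps6 above. The genes next above the limit, Rps16 (27.0% of the sum), Rpl28 (27.2%), Rps29 (31.9%) and Rps7 (35.9%), differed by 0.08, 0.16, 0.22 and 0.07, and the limit was chosen after the shares were seen. The other 75 genes had a median of 0.03, with 26 below 0 and 0 called. They included the pseudogene members Rps3a2, Rps3a3, Rpl37rt and Rps12l1, which were not searched for copies and so have no share of their own. Over sums of copies, 82 units were tested, 0 rose and 0 fell, and the differences ran from -0.24 to 0.25 (53 above 0, 29 below). The median over the sums with a core gene was 0.03.

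Among the large-subunit proteins fixed by name, none passed. Rpl5 and Rpl11 form a complex with 5S rRNA that can bind and hold back Mdm2. Rpl5 had 83.7, 124, 85.9, 71.6, 66.5 and 100.3 FPKM in DEX libraries 1 to 6, against 121, 107, 98.2, 88.8, 93.3 and 109 FPKM in the VEH libraries. It was lower in DEX in all leukemias but the second, by -0.23 ± 0.10 (adjusted p = 0.143), and reached an adjusted p of 0.0413 (-0.32) without leukemia 2 and of 0.0249 (-0.37) after rescaling to a common sum, both by limma. Its row held 5.82% of the summed level, most of which stood at Gm15500. The sum of Rpl5 and its copies differed by -0.03 (95% interval -0.19 to 0.14, adjusted p = 0.826, limma). Rpl11 averaged 820 ± 342 FPKM in DEX and 809 ± 230 FPKM in VEH, a difference of -0.02 (adjusted p = 0.900). Rpl10, a late-joining protein near the peptidyl transferase centre that is recurrently mutated in human T-ALL, averaged 234 ± 61 FPKM in DEX and 258.6 ± 51 FPKM in VEH (-0.16, adjusted p = 0.266, limma). Its row held 18.5% of the summed level. Rpl3, which also lies near that centre, averaged 613 ± 210 FPKM in DEX and 601 ± 193 FPKM in VEH, a difference of 0.02 (95% interval -0.11 to 0.15).

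The stalk, which recruits elongation factors, consists of Rplp0 and of Rplp1 and Rplp2 dimers, and 0 of its 3 genes passed. Rplp0 averaged 1314 ± 237 FPKM in DEX and 1274 ± 216 FPKM in VEH, with a difference of 0.04 (95% interval -0.16 to 0.24). Rplp1 averaged 2189 ± 691 FPKM in DEX and 1976 ± 502 FPKM in VEH (0.13, interval -0.07 to 0.34). Rplp2 averaged 1306 ± 320 FPKM in DEX and 1212 ± 207 FPKM in VEH (0.09, interval -0.09 to 0.27). All 3 differences were above 0, and each interval held 0.

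In the small subunit 0 of 29 tested genes passed, 21 lay above 0 and 8 below, and the median was 0.03. Rps6, the substrate of the S6 kinases, had 13.2, 16.0, 23.8, 17.2, 7.53 and 34.1 FPKM in DEX libraries 1 to 6, against 17.6, 16.4, 19.1, 16.7, 12.7 and 19.3 FPKM in the VEH libraries. The sum of Rps6 and its copies differed by 0.04, and the row itself by 0.01 ± 0.17. Rps19, which is mutated in Diamond-Blackfan anemia, averaged 1150 ± 419 FPKM in DEX and 1169.7 ± 338 FPKM in VEH (-0.05, adjusted p = 0.758). Rps14, whose loss marks the human 5q- syndrome, averaged 1819 ± 279 FPKM in DEX and 1653 ± 240 FPKM in VEH (0.14, adjusted p = 0.242) and was higher in DEX in 5 of 6 leukemias. Rpsa, a small-subunit protein also known as a laminin receptor, averaged 1112 ± 235 FPKM in DEX and 1081 ± 181 FPKM in VEH (0.03, adjusted p = 0.784). The largest positive differences among core genes, singled out after their values were seen, were Rps13 (0.22, adjusted p = 0.337) and Rps29 (0.22, adjusted p = 0.230; all from limma). The sum of Rps13 and its copies differed by 0.015, and that of Rps29 and its copies by 0.09.

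Within a leukemia most core genes lay on the same side of 0, but the side differed across leukemias. In leukemia 2, 69 of 75 tested core genes were higher in DEX and 6 lower, and in leukemia 6 the counts were 59 and 16. In leukemia 1, 4 were higher and 71 lower, and in leukemia 5, 10 were higher and 65 lower. Leukemias 3 and 4 were divided, with 37 higher and 38 lower and with 30 higher and 45 lower. The median difference of the core genes was -0.14, 0.28, 0.00, -0.02, -0.13 and 0.15 in leukemias 1 to 6 (mean 0.02, SD 0.16), where the medians of all genes were -0.03, -0.12, -0.02, -0.01, -0.03 and -0.09. The large and the small subunit went the same way in leukemias 1, 2, 5 and 6, at -0.16 and -0.13, 0.32 and 0.24, -0.14 and -0.14, and 0.14 and 0.16. With 1 library per arm and leukemia, a leukemia's own shift has no replicate and was not tested.

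**Figure D3:**
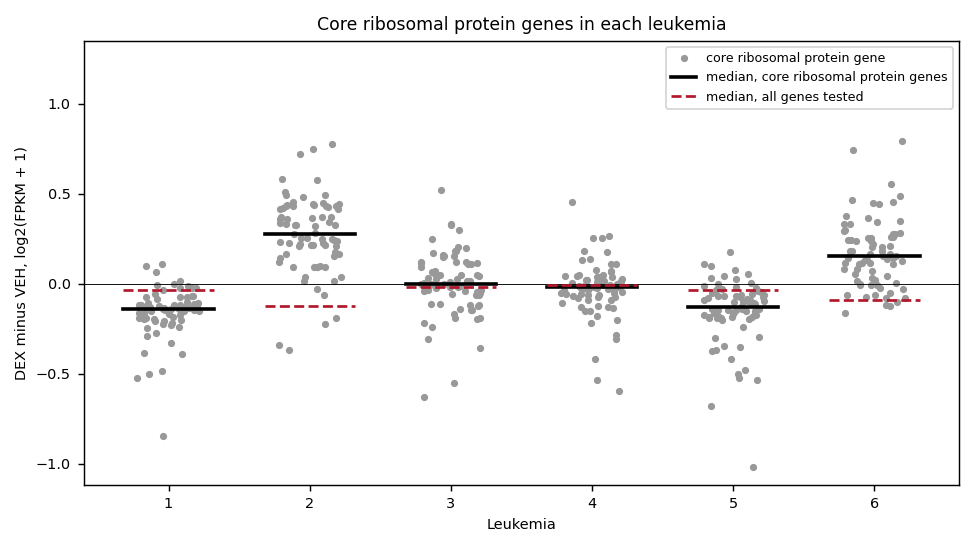
DEX minus VEH difference in log2(FPKM + 1) of each of 75 core ribosomal protein genes (grey points) in leukemias 1 to 6, with the core median (black) and the median of all genes tested (red, dashed). The points lie mostly above 0 in leukemias 2 and 6 and mostly below 0 in leukemias 1 and 5.

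Other measures of the same libraries differed between leukemias too. The summed granulocyte and monocyte markers were lowest in DEX relative to VEH in leukemias 2 and 6, with log2 ratios of -0.73, -1.49, 0.53, -0.05, -0.53 and -1.34 in leukemias 1 to 6. The erythroid sum in leukemia 2 was 153 FPKM in DEX and 1221 FPKM in VEH, a log2 ratio of -3.0, and the B-lineage ratio there was -2.62. The share of FPKM in small RNA genes was 71.0% in DEX and 64.4% in VEH of leukemia 2, 69.9% in DEX and 65.1% in VEH of leukemia 5, and 68.7% in DEX and 63.6% in VEH of leukemia 6. In leukemias 1, 3 and 4 it was 62.4% in DEX and 61.7% in VEH, 64.8% in DEX and 65.8% in VEH, and 65.0% in DEX and 65.6% in VEH. Leukemias 2, 5 and 6 are those whose DEX description lacks an S number. The core median was -0.04 in leukemias 1, 3 and 4 and 0.11 in leukemias 2, 5 and 6, and it was -0.02 without leukemia 2. Leukemia 5 by itself had a core median of -0.13, where leukemias 2 and 6 had 0.28 and 0.15. The part of marker content, of small RNA share and of whatever the S number stands for in these shifts was not tested.

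Most ribosomal protein genes differed between leukemias, and this count rested on leukemia 6. In an F test of the leukemia coefficients of that limma model, 77 of 85 passed (90.6%), where the background was 51.1% of all genes. The median range over leukemia means was 0.83 on the log2 scale, against 0.71 for all genes. With leukemia 6 left out 15 of 85 passed (17.6%), below the 37.8% of all genes in that fit, and with quantile normalization 37 passed (43.5%), against 49.5% of all genes. Leukemia 6 was singled out after its values were seen. Both of its libraries stood above all other libraries in 57 of 75 core genes (76.0%), against 7.57% of all genes. The core genes made up 22.4% of protein-coding FPKM in DEX and 20.8% in VEH of leukemia 6, against 14.0% to 17.2% in the DEX and 14.2% to 17.2% in the VEH libraries of the other leukemias.

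Rpl34 and the Rps3a genes were 4 of the 5 genes with the widest ranges among those past the F test. The level of Rpl34 stood at the parent in some leukemias and at a copy in others. That of the Rps3a genes was shared by parent and copies in leukemias 1 to 5 and stood nearly all at the copies in leukemia 6. Rps12l1, with a range of 4.15, did not pass the F test (adjusted p = 0.514, limma). Rpl34, a large-subunit protein, had 886, 1081, 1211, 489.6, 419 and 28.0 FPKM in DEX libraries 1 to 6, and 934, 888, 1188, 488, 475 and 31.4 FPKM in the VEH libraries. Rpl34-ps1, whose printed stretch differs from it at the capital base, had 46.1, 25.6, 30.5, 654, 579.8 and 2181.6 FPKM in the DEX libraries and 58.0, 48.5, 15.4, 670.0, 630.4 and 1976 FPKM in the VEH libraries. The 6 leukemias thus fell into those with nearly all of the level at Rpl34 (1 to 3), those with some at each (4 and 5) and 1 with nearly all at the copy (6), and both arms of a leukemia were alike. The sum of Rpl34 and its copies was 932 to 1242 FPKM in DEX and 938 to 1204 FPKM in VEH in leukemias 1 to 5, and 2216 FPKM in DEX and 2008 FPKM in VEH in leukemia 6. Its range over leukemias was 1.13 on the log2 scale, where that of the Rpl34 row was 5.29.

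Rps3a1, a small-subunit protein, had 1068, 1051, 1081, 949.9, 899.8 and 43.3 FPKM in DEX libraries 1 to 6, and 1021, 954, 1036, 944, 949 and 41.0 FPKM in the VEH libraries. Its copies were high where it was low. Rps3a2 had 1874 FPKM in DEX and 1944 FPKM in VEH of leukemia 6, against 524 to 681 FPKM in DEX and 569 to 634 FPKM in VEH of the others. Rps3a3 had 1107 FPKM in DEX and 1331 FPKM in VEH of leukemia 6, against 366 to 465 FPKM in DEX and 409 to 445 FPKM in VEH of the others. The summed level of the Rps3a genes and their copies had a range of 0.76, against 4.62 for Rps3a1 alone. The row of Rpl29, another large-subunit protein, was highest in leukemia 3, at 734 FPKM in DEX and 793 FPKM in VEH, against 283 to 613 FPKM in DEX and 269.6 to 473 FPKM in VEH of the others, with a range of 1.41. The sum of Rpl29 and its copies was instead highest in leukemia 6, at 1273 FPKM in DEX and 961 FPKM in VEH. In leukemia 3 that sum was 753 FPKM in DEX and 806 FPKM in VEH, and its range over leukemias was 0.90. None of these 5 genes passed the DEX test: adjusted p was 0.894 for Rpl34, 0.622 for Rps3a1, 0.882 for Rps3a2, 0.372 for Rps3a3 and 0.514 for Rpl29 (limma).

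**Figure D4:**
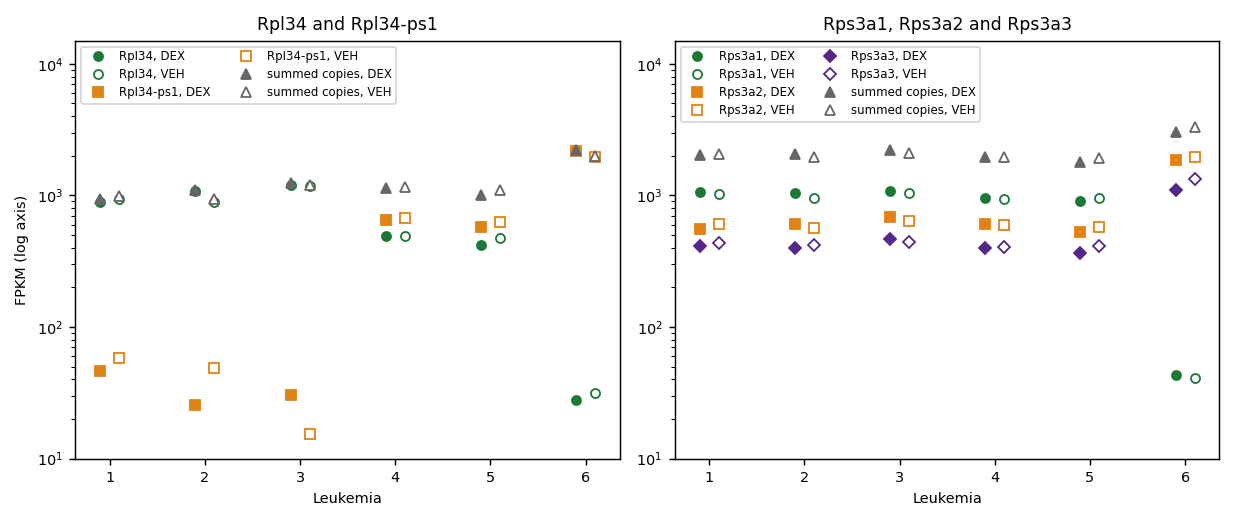
FPKM on a log axis of Rpl34 and Rpl34-ps1 (left) and of Rps3a1, Rps3a2 and Rps3a3 (right) in leukemias 1 to 6, in DEX (filled) and VEH (open), with the sum over each gene and its copies (triangles). The parent genes drop to 28.0 to 43.3 FPKM in leukemia 6 where the copies are highest.

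Some ribosomal proteins have paralogs that can replace them in the ribosome. Rpl22, a large-subunit protein that developing T cells need and that is deleted in some human T-ALL, averaged 719 ± 135 FPKM in DEX and 720 ± 132 FPKM in VEH, a difference of -0.00 (95% interval -0.15 to 0.14). Its paralog Rpl22l1 had 174, 121, 186, 132, 125 and 191.3 FPKM in DEX libraries 1 to 6, against 192, 161, 149.8, 117, 162 and 213 FPKM in the VEH libraries, with overlapping arms (-0.10, adjusted p = 0.544, limma). The paralog's change minus the partner's was tested in the 3 pairs in which both passed the filter, by an exact sign-flip test over 6 leukemias, two-sided, whose smallest p is 0.03125. Adjusted over 3 pairs, a pair at that p passes 0.05 only if another pair reaches it too. For Rpl22l1 minus Rpl22 the difference in change was -0.10 (SD 0.27, n = 6; exact p = 0.469, adjusted over the pairs 0.469), above 0 in 2 of 6 leukemias. For Rpl7l1 minus Rpl7 it was -0.21 (SD 0.27, n = 6; exact p = 0.0938, adjusted 0.141), and for Rpl36al minus Rpl36a it was -0.07 (SD 0.06, n = 6; exact p = 0.0625, adjusted 0.141); each was above 0 in 1 of 6 leukemias.

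Rpl7l1, known from ribosome assembly, averaged 28.5 ± 5.1 FPKM in DEX and 33.7 ± 6.0 FPKM in VEH (-0.24, adjusted p = 0.106, limma), and Rpl7 averaged 1584 ± 325 FPKM in DEX and 1619 ± 352 FPKM in VEH. Rpl36al had 236 to 391 FPKM in DEX and 268 to 395 FPKM in VEH, and Rpl36a 1052 ± 269 FPKM in DEX and 1061 ± 266 FPKM in VEH. Rps27l, a p53 target, averaged 164 ± 40 FPKM in DEX and 180.4 ± 40 FPKM in VEH (-0.14, adjusted p = 0.332, limma). Its partner Rps27 was listed at 0, so that pair had no test. Rpl39, whose partner Rpl39l was near 0, averaged 927 ± 232 FPKM in DEX and 948 ± 250 FPKM in VEH, and Rps4x, the partner of Rps4l, averaged 1974 ± 530 FPKM in DEX and 1989.5 ± 544 FPKM in VEH.

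**Figure D5:**
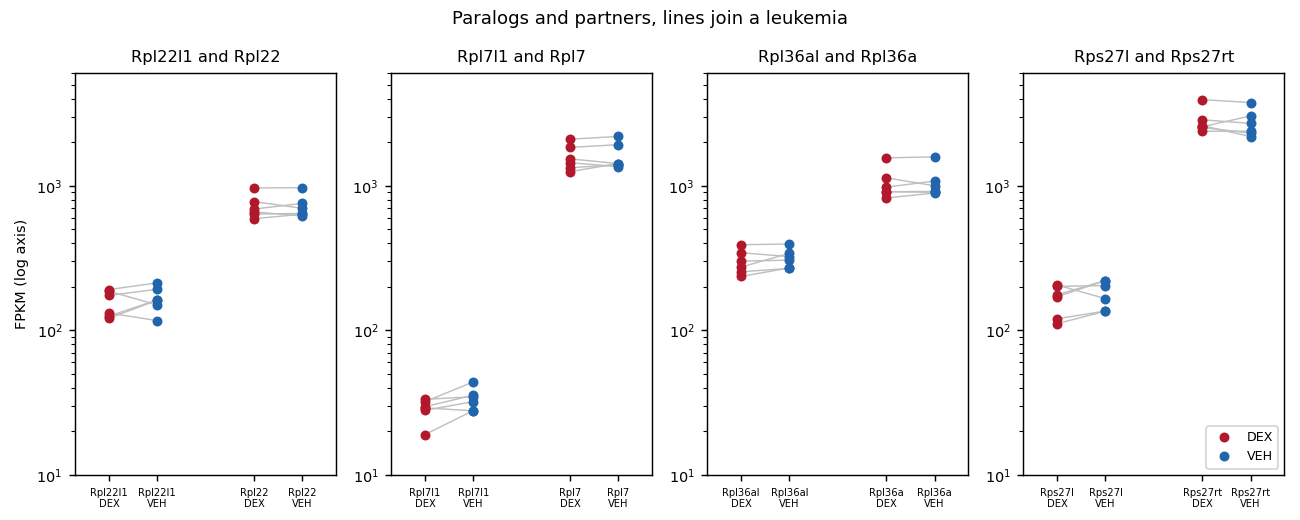
FPKM on a log axis of 3 paralogs and their partners and of Rps27l beside the retrogene Rps27rt, in 6 DEX (red) and 6 VEH (blue) libraries, with lines between libraries of a leukemia. In each pair the paralog lies below its partner, and DEX and VEH overlap.

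Genes that work with the ribosomal proteins were described from fixed lists. Fau and Rack1 (Gnb2l1 in the file), subunit proteins outside the naming rule, differed by 0.11 and -0.02, and neither passed. Of 16 other genes whose mRNAs carry a TOP motif, 0 passed, where 13.6% of all genes passed. Their median was -0.05, as was that of all genes tested. Among the 16, Eef1a1, the elongation factor that brings tRNA, averaged 6594 FPKM in DEX and 6551 FPKM in VEH. Npm1, a nucleolar chaperone, differed by -0.24 (adjusted p = 0.0818, limma).

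Of 16 tested chaperones and late maturation factors of the subunits 2 fell (12.5%, near the 9.28% of all genes that fell), 0 rose and 14 did not pass, with a median of -0.14. Bysl, needed for maturation of the small subunit, fell to 5.05 FPKM in DEX, against 7.85 FPKM in VEH (-0.56 ± 0.08, adjusted p = 0.00473). Grwd1, a chaperone of Rpl3, fell to 10.3 FPKM in DEX, against 14.8 FPKM in VEH (-0.48 ± 0.09, adjusted p = 0.0107). Both were lower in 6 of 6 leukemias. Nob1, the nuclease that makes the end of 18S rRNA, differed by -0.30 (adjusted p = 0.0546, limma).

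Of 13 genes that control ribosomal protein synthesis 1 rose, 3 fell and 9 did not pass, where 4.27% of all genes rose and 9.28% fell. Ddit4, an inhibitor of mTORC1, rose to 148 FPKM in DEX, against 48.3 FPKM in VEH, a difference of 1.69 ± 0.15 seen in 6 of 6 leukemias. Myc fell to 28.7 FPKM in DEX, against 72.5 FPKM in VEH (-1.31, adjusted p = 0.000651). Eif4e, the cap-binding protein, fell to 32.5 FPKM in DEX, against 41.3 FPKM in VEH (-0.34, adjusted p = 0.0242), and Eif4ebp1, which binds and blocks it, fell to 9.88 FPKM in DEX, against 13.2 FPKM in VEH (-0.43, adjusted p = 0.0166, limma). Mtor, Tsc1, Tsc2 and Rps6kb1 differed by 0.01, 0.00, -0.02 and 0.04 and did not pass. The counts and medians of these lists are descriptions, and no test set them against the ribosomal protein genes.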

How the data were processed

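Total RNA of 12 libraries (6 DEX, 6 VEH) was analysed from 1 table of FPKM made and deposited by the authors, with 2 decimals. Per the submitters' processing notes, Bowtie2 (version 2), RSEM and edgeR were used, in roles not given, on mm10; the annotation is not given in the sources used here. Fragment counts are not held in the table, so a count test was not used. Here, log2(FPKM + 1) was fitted with limma 3.58.1 (R 4.3.3; leukemia block and treatment, eBayes with trend) for genes that reached an FPKM of 1 in 6 or more of the 12 libraries; tests were two-sided, adjusted by Benjamini-Hochberg over all genes tested, with 0.05 as the threshold. Fold changes on this scale understate those of low genes. Errors are the moderated SE for log2 differences and SD for FPKM. The fit was tested on simulated data.

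The leukemia code in the titles pairs the libraries; deviations from the group means correlated at 0.551 to 0.817 within a leukemia and at 0.205 or less across leukemias. No library was a duplicate of another. Depth was estimated from the step size of low FPKM times length among genes 400 to 700 bp long, with an assumed fragment of 150 bp, and that of the VEH library of leukemia 2 changed with the smoothing used. Genes were matched to GENCODE M21 (37607 of 38339). Copies were hits of each coding sequence against GENCODE transcripts (blastn 2.17.0, at least 95% identity over at least 50% of it). Promoters came from RefSeq.

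Named genes were up to 10 calls in each direction, 8 paralog pairs, 12 genes fixed by name, the 3 highest and 3 lowest, and the 5 widest leukemia ranges among genes past the F test. The members and lists were chosen with earlier results of these data known. Alternatives were other pseudocounts, filters, scalings, no block, no trend, each leukemia left out and, added later, subsets by S number and sums of copies. Riok2 and Ahsp are not analysed here.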

Additional observations from a re-analysis of the deposited data

Results flagged for a closer look

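In the named genes, the 6 DEX values, the 6 VEH values and the 6 differences were each checked for a value far from the rest (Dixon's test, 97 sets, about 5% of which chance would mark), and 15 were marked. Leukemia 6 held 14 of them. Its Rps3a1 level was lowest, at 43.3 FPKM in DEX (next 900) and 41.0 FPKM in VEH (next 944). Its Rps3a2 level was highest, at 1874 FPKM in DEX (next 681) and 1944 FPKM in VEH (next 634), as was its Rps3a3 level, at 1107 FPKM in DEX (next 465) and 1331 FPKM in VEH (next 445).

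In DEX libraries, leukemia 6 was also highest for Rpl11 (1479 FPKM, next 866), Rps19 (1945 FPKM, next 1169), Rplp1 (3547 FPKM, next 2112), Rps27rt (3944 FPKM, next 2859) and Rpl13a (4431 FPKM, next 2548). In VEH libraries it was highest for Rpl39 (1447 FPKM, next 923), Rpl36a (1584 FPKM, next 1078) and Rps4x (3079 FPKM, next 1926). The mark outside leukemia 6 was the Rps14 difference in leukemia 2, at 0.37 on the log2 scale, where the next highest was 0.13. The sets share libraries, so these marks are not independent of each other.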

How the results depend on the processing

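Under all alternatives run, 0 ribosomal protein genes rose. The 2 that fell became 0 with no filter, with no replicate block, in leukemias 2, 5 and 6 only and in sums of copies, and 1 with median-of-ratios scaling; with 1 leukemia left out they were 1 to 3. The Rpl12 and Rpl27a differences were above 0 only in the sums (0.0394 and 0.0227). Over all genes, 528 rose and 1147 fell; these were 181 and 370 with no filter, 268 and 1844 after rescaling to TPM, 35 and 46 with no replicate block, 188 and 257 in leukemias 2, 5 and 6, and 233 to 532 and 425 to 1042 with 1 leukemia left out. With median-of-ratios scaling 683 rose and 718 fell, and 388 and 523 in leukemias 1, 3 and 4. Between leukemias, 77 genes of the group differed, 37 with quantile normalization, 27 in leukemias 1, 3 and 4, and 15 to 79 with 1 leukemia left out, the lowest without leukemia 6. The cause was not tested. The core median was below 0 in 4 of 18 alternatives fitted to single genes and above that of all genes in 16. The paralog tests passed under no alternative with all 6 leukemias, where 1 pair cannot pass alone after adjustment. With 1 leukemia left out they cannot reach the threshold. Rpl12 and Rpl27a stayed called in 15 and 10 of 19 alternatives. Without the replicate block, adjusted p was 0.125 for Rpl12 and 0.460 for Rpl27a. FPKM keeps no counts, so counting error cannot be given, and rows with near-identical copies are uncertain.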

Other observations

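Rps12l1 (chromosome 7, 56014016 to 56014414, plus strand), a processed copy of Rps12 singled out after its values were seen, had 219, 2.55, 0, 33.7, 0 and 1.08 FPKM in DEX libraries 1 to 6, and 0, 178, 1.17, 0, 1.02 and 1.05 FPKM in the VEH libraries. High and low values did not follow the arm, and the difference was 0.86 ± 1.47 (adjusted p = 0.731, limma). Its copy Rps12-ps3 had 2372 FPKM in DEX and 2714 FPKM in VEH of leukemia 1, and 2212 FPKM in DEX and 2053 FPKM in VEH of leukemia 2. The sum of the Rps12 copies was 2599.6 FPKM in DEX and 2722 FPKM in VEH of leukemia 1, and 2219.8 FPKM in DEX and 2239.8 FPKM in VEH of leukemia 2, so the arms of a leukemia lay closer in the sum than in the single row.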
